A study of Mus musculus with 2 samples.

Results

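Amelogenin, ameloblastin, enamelin and the other products of the enamel-forming ameloblast were followed in mDE6, a line of mouse cells labelled as odontogenic epithelium, at rest and after treatment with the GSK-3 inhibitor CHIR99021, an activator of β-catenin. The 10 genes were Amelx, Ambn, Enam, Amtn, Odam, Mmp20, Klk4, Tuft1, Dspp and Slc24a4. Their members on the array were the non-control probes annotated with exactly these gene names, which gave 16 of the 56605 distinct probes. The array carried 1 probe for each of 6 genes, 2 probes each for Odam and Tuft1, and 3 probes each for Amelx and Slc24a4. Each of the 16 probes was printed as 1 spot.

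Cy3-labelled material amplified from total RNA was read on Agilent arrays, 1 for control and 1 for CHIR99021-treated cells, 6 h after the start of treatment. The control was a DMSO vehicle control by its label, whereas the study's methods call the cells untreated, and the label gives the CHIR99021 dose as 5 mM where the methods give the same figure in μM. No allele, transgene or age is given for the line, and both groups are cultures of the same line. Since each condition has 1 array, the number of arrays limits the precision, no difference has a replicate check and no test between the conditions was made, and both arrays lay on the same slide, so that position on the slide and treatment cannot be told apart.

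Enamel is laid down by ameloblasts, epithelial cells that first secrete a protein matrix and later degrade and mineralise it. Amelogenin, ameloblastin and enamelin form the secretory-stage matrix, MMP20 is the protease that processes this matrix during secretion, and KLK4 is the serine protease that clears it during maturation. Amelotin and ODAM are secreted by maturation-stage ameloblasts and are deposited in the basal lamina at the enamel surface. SLC24A4 is an ion exchanger that carries calcium during maturation, tuftelin is an acidic protein found in enamel and in many other tissues, and Dspp, best known for the dentin matrix of odontoblasts, is also transcribed briefly in young ameloblasts.

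In mDE6 cells, 8 of the 10 enamel genes had no probe well above background on either array, and the same 2 genes, Klk4 and Tuft1, had a probe well above background on both. Well above background is the scanner software's own call that a spot exceeds its background by a margin set from the background noise. By this call 2 of the 16 enamel gene probes (12.5%) were detected on the control array, beside 47.7% of all 56605 probes, and 2 of the 16 (12.5%) on the CHIR99021 array, beside 46.1% of all probes. Counted by gene, 2 of 10 (20%) were detected on each array, beside 48.9% (control) and 47.6% (CHIR99021) of the 37074 gene names. No enamel gene probe was detected on 1 array only. A spot that is not well above background sets a limit on what the array could measure and does not show that a transcript was absent.

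The probes behind these calls are shown because each reads a defined stretch of its transcript, and a negative call refers to that stretch alone. The probes of 6 genes that were not well above background are given whole, with coordinates in mouse build mm9 as the array files give them. The Ambn probe maps to chr5:88894212-88894741 on the plus strand, the Enam probe to chr5:88933627-88933686, the Amtn probe to chr5:88807126-88807920, the Odam probe to chr5:88316448-88316507, and the Dspp probe to chr5:104607570-104607629, all on the plus strand, and the Amelx probe to chrX:165619713-165619772 on the minus strand. The mm9 spans of the Ambn and Amtn probes, 530 and 795 bases, exceed the 60 bases of a probe, so that these probes cross an exon junction. Capitals in the Dspp probe mark its 4 copies of AGTGAC, the repeat unit of the region that encodes the serine- and aspartate-rich part of the protein.
Ambn A_51_P340484: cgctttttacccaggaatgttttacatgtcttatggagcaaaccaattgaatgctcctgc
Amelx A_55_P1993859: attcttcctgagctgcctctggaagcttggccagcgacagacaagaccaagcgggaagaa
Enam A_55_P2117247: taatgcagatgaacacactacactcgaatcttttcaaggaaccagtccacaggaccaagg
Amtn A_52_P63361: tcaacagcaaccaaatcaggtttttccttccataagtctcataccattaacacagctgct
Odam A_55_P1963758: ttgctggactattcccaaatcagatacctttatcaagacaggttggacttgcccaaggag
Dspp A_55_P2166132: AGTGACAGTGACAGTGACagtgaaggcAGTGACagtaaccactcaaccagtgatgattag

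The detected probes are those of Klk4, at chr7:51140986-51141045 on the plus strand, and of Tuft1, at chr3:94416854-94416913 on the minus strand. Of each, the initial 30 of 60 bases are given, and capitals are not used. The second Tuft1 probe, A_55_P2943049, reads another transcript at chr3:94419001-94419059 and was well above background on neither array.
Klk4 A_51_P123039: atgccacaacctcctccctggaacacagga
Tuft1 A_51_P417053: ctatagtgtggtctagtagcctcatgagtg

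The values are processed signals, the brightness of a spot after background subtraction in arbitrary units, with no scaling between the arrays. Where a spot was not both positive and different from its own background, the software wrote a surrogate value set from the background error, and such a value is no level. The 308 negative control spots of each array, which are designed to match no mouse transcript, had a median signal of 5.35 with control RNA and 5.98 with RNA of CHIR99021-treated cells. Of these control spots 5 (1.62%) were called well above background on each array, and their highest signals were 217 and 336. These values set the scale for the enamel gene probes.

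Among the secretory matrix genes, none of the 5 probes was well above background on either array. The Ambn probe gave 5.08 in control and 5.75 in CHIR99021-treated cells, and the Enam probe gave 5.09 and 5.76. All of these are surrogate values, and they lie beside the medians of the negative control spots. Amelx A_55_P1993859 gave a signal of 14.1 in control and a surrogate value of 6.26 in CHIR99021-treated cells. On the control array 9 of the 308 negative control spots reached or exceeded that 14.1, and the spot failed the well above background call, so no ratio was formed. The other two Amelx probes gave surrogate values on both arrays, 5.11 and 5.63 for A_55_P2503995 and 4.99 and 5.65 for A_55_P2745591, whose mm9 span of 1292 bases also crosses an exon junction. These probes lie at chrX:165618015-165618074 and chrX:165620584-165621875. The 3 Amelx probes thus gave the same negative call at 3 places of the gene.

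The probes of the maturation-stage attachment proteins read close to the medians of the negative control spots. Amtn gave surrogate values of 5.01 and 5.66, and the Odam probes gave 5.59 and 6.09 for A_55_P1963758 and 5.34 and 6.02 for A_55_P2743807, again surrogate values on both arrays. The latter Odam probe lies at chr5:88322715-88322774, 6.27 kb downstream of the former. Dspp gave 8.56 in control and a surrogate value of 5.94 in CHIR99021-treated cells, and neither spot was well above background. Its probe reads part of the repeat region of the gene, and the array holds no Dspp probe elsewhere.

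Mmp20, the secretory-stage protease, read at chr9:7674310-7674369, gave surrogate values of 4.99 in control and 5.50 in CHIR99021-treated cells. Slc24a4, the calcium exchanger, gave surrogate values with 2 of its 3 probes, 4.68 and 5.28 for A_51_P495194 and 5.99 and 6.54 for A_55_P1974804. The third, A_55_P2744484 at chr12:103504661-103504720, gave signals of 7.66 in control and 14.1 in CHIR99021-treated cells. The software's weaker call, that a spot is positive and differs from its own background, was met by this probe on both arrays and by Amelx A_55_P1993859 and Dspp in control cells only. On the same call 17 (5.52%) of the negative control spots passed in control and 20 (6.49%) in CHIR99021-treated cells. Across the 14 probes that were not well above background, processed signals ran from 4.68 to 14.1 with a median of 5.22 in control cells, and from 5.28 to 14.1 with a median of 5.81 in CHIR99021-treated cells. Surrogate values stood at 11 of the 14 on the control array and at 13 on the other, and 11 had them on both. Before surrogates were set in, the background-subtracted signals of the same probes ran from -7.41 to 13.2 in control cells, with 8 of the 14 below 0, and from -9.40 to 14.3 after CHIR99021, with 6 below 0. These probes thus scattered around 0 on both arrays.

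**Figure D1:**
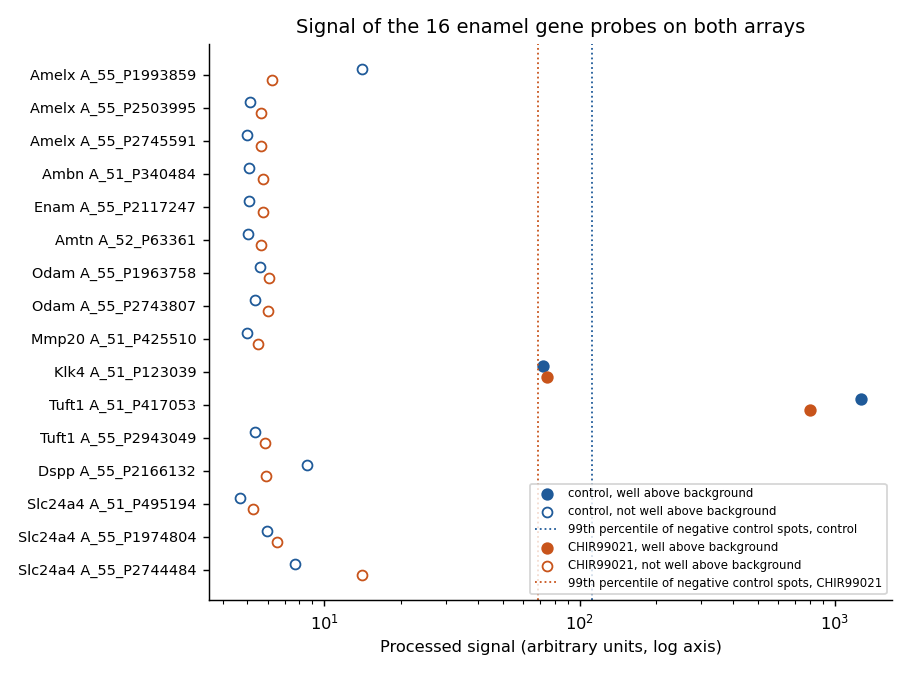
Processed signal (arbitrary units, log axis) of the 16 enamel gene probes, 1 spot per probe and array, with control in blue and CHIR99021 in orange; filled points were well above background, and dotted lines mark the 99th percentile of the negative control spots (112 control, 68.5 CHIR99021). The Klk4 probe and 1 Tuft1 probe are filled on both arrays, and the other 14 probes lie between 4.68 and 14.1.

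Klk4, the maturation-stage protease, was measured on both arrays and did not meet the criteria for a change. Its probe, in row 267 of 384, gave a signal of 71.7 with an error-model estimate of 8.68 in control and 74.6 with an estimate of 9.28 in CHIR99021-treated cells. The error-model estimate is the software's own uncertainty for the spot and does not include the spread between cultures. The Klk4 signal was close to the top of the negative control spots, of which 4 reached or exceeded it in control and 1 in CHIR99021-treated cells. After division of each signal by its array's 75th percentile, 487 for control and 469 for CHIR99021, the ratio of CHIR99021 to control was 1.08, a log2 ratio of 0.11 with an error-model estimate of 0.25. Its Z-score, the log2 ratio relative to the mean and SD of the 500 tested probes closest in mean signal, was 0.10.

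Tuft1, which encodes tuftelin, was lower on the CHIR99021 array in its detected transcript but fell short of the criteria. Probe A_51_P417053, in row 95 of 384, gave 1268 with an error-model estimate of 127 in control and 801 with an estimate of 80.3 in CHIR99021-treated cells. None of the negative control spots reached either signal. The scaled ratio was 0.655, which is 1.53-fold lower, and the log2 ratio was -0.61 with an error-model estimate of 0.20. The Z-score was -1.95, and among the 500 probes closest in mean signal, whose log2 ratios had an SD of 0.33, 4.0% lay at or below it. The other Tuft1 probe gave surrogate values of 5.34 and 5.86, so the value rests on 1 spot per array. In RNA of a whole culture, fewer cells with a transcript and less of it per cell cannot be told apart.

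By the criteria of the study, a probe was called lower when its ratio did not exceed 0.66 and its Z-score did not exceed -2, with the sign of the latter read as negative. It was called higher in mirror image, from a ratio of 1.5 and a Z-score of 2 upwards. Of the 28066 probes detected on 1 or both arrays, 2.72% were called lower and 2.35% higher. None of the 2 tested enamel gene probes was called in either direction. Over the alternative settings the Tuft1 ratio stayed between 0.631 and 0.678 and the Klk4 ratio between 1.03 and 1.11. Tuft1 met the ratio criterion at 0.655, which 9.68% of tested probes met when it was used alone, and missed the Z-score criterion. With median scaling (0.674) or normexp background correction (0.678) it did not meet the ratio criterion. Among 282 probes printed 10 times on the array, the SD of the log2 ratio for a single spot was typically 0.05 (median), a figure that holds only the error between spots.

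**Figure D2:**
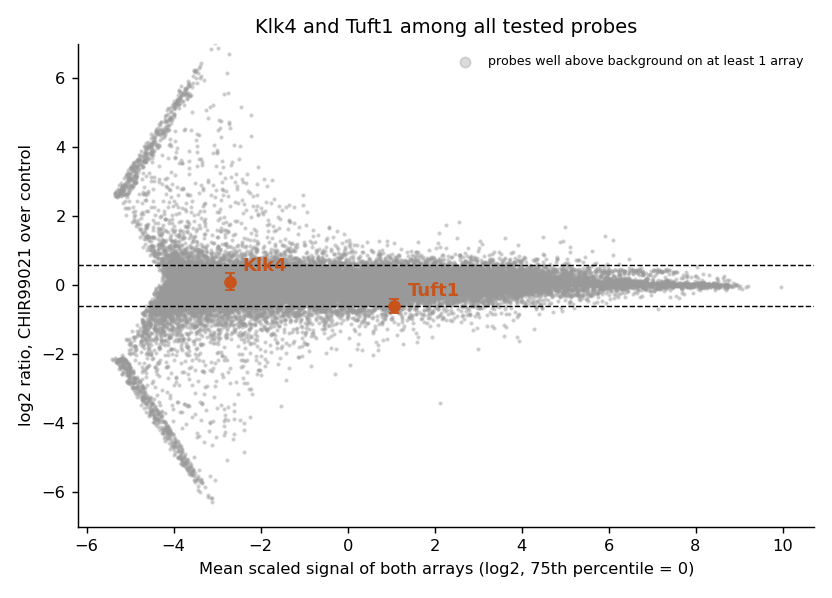
Log2 ratio of CHIR99021 over control against the mean scaled signal of both arrays (log2 units, 0 at the 75th percentile) for the 28066 tested probes in grey, with Klk4 and Tuft1 in orange and bars for the error-model estimates; dashed lines mark ratios of 0.66 and 1.5. Tuft1, at -0.61, lies at the lower dashed line, and Klk4, at 0.11, lies near 0.

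The enamel genes belong to differentiated epithelium, so the label of the line was checked against cell type markers. Of 12 epithelial marker genes, 6 (50%) had a detected probe on each array, though not the same 6, beside 48.9% (control) and 47.6% (CHIR99021) of all gene names. The transcription factor gene Trp63 was detected on both arrays with 1 of its 4 probes (2306 control, 2896 CHIR99021), on the control array only with another (77.1 and 5.58, control pixel coefficient of variation 0.462), and on neither with the rest. The integrin gene Itgb4 was detected on both arrays with 1 of its 3 probes (163 and 166). The basal keratin Krt14 was called well above background on both arrays at 48.5 and 54.6, below the 99th percentile of the negative control spots, which was 112 and 68.5. Krt18 was detected in control cells only (25.7 and 20.4). Krt5, a basal keratin, was detected after CHIR99021 only (5.51 and 165) and was the 1 of 9 tested epithelial marker probes called higher, beside 2.35% of all tested probes, at least 7.24-fold, from a spot with a pixel coefficient of variation of 0.323 whose part in the call was not tested. The adhesion genes Cdh1 (5.51 and 6.13) and Epcam (5.23 and 5.76), the simple epithelial keratins Krt8 and Krt19 and the tight junction gene Cldn4 were well above background on neither array. Of 11 mesenchymal marker genes, 10 (90.9%) were detected on each array, beside the same shares of all gene names, with Vim at 52302 and 45883, Prrx1 at 14806 and 14454 and Col3a1 at 9993 and 8080. Of the 12 epithelial genes, Cdh1, Epcam, Krt8, Krt19 and Cldn4 were thus detected on neither array, a call that does not show absence. Trp63, Itgb4 and Krt14 were detected on both arrays. So was Krt17 (62.4 and 59.8), below the same 99th percentile. These markers do not settle the odontogenic epithelial label. By probe, 8 (control) and 7 (CHIR99021) of 19 epithelial marker probes were detected, and 3 and 4 exceeded the 99th percentile of the negative control spots. On each array 2 exceeded the highest negative control spot. The mesenchymal probe counts stayed within 1.5 times of 15 and 13 under both rules. Probes of the enamel regulators, described below, also fell above the highest spot, from 21 (control) and 22 (CHIR99021) to 9 on each array. Dentin and bone probe counts stayed within 1.5 times of 14. The share of all probes under these 2 rules is not given here. The part of this marker pattern in the enamel gene calls was not tested.

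Other genes needed for amelogenesis, many of them known from inherited enamel defects, were also counted. Of 52 probes for 26 such genes, 24 (46.2%) were well above background on each array, beside 47.7% and 46.1% of all probes and 12.5% of the enamel gene probes. By gene, 17 of the 26 (65.4%) had a detected probe on each array, beside 48.9% and 47.6% of all gene names and 20% of the enamel genes. The detected genes included Fam83h (2066 control, 1962 CHIR99021), whose product is linked to the keratin cytoskeleton, Stim1 (3193 and 2414), a calcium sensor, and Ltbp3 (6178 and 5322), a binding protein of latent TGF-β, all of which are also expressed outside the enamel organ. Wdr72, which acts in the endocytosis of degraded enamel matrix, was not well above background with any of its 4 probes, nor were the enamel phosphatase gene under its older name Acpt and the tight junction genes Cldn16 and Cldn19.

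Of the 27 tested probes of these amelogenesis genes, 2 were called lower and 1 higher, beside 2.72% and 2.35% of all tested probes. Fam20a, a pseudokinase that assists FAM20C in phosphorylating enamel matrix proteins, gave 1592 in control and 811 in CHIR99021-treated cells, a ratio of 0.528, and its Z-score was -2.80. Slc13a5, a citrate transporter needed for enamel mineral, gave 6114 and 3470 with probe A_55_P2044242, a ratio of 0.589, and its Z-score was -2.75. Each kept its call in 10 of 11 settings, and lost it with 1 mean and SD over all probes. Itgb6, an epithelial integrin subunit of ameloblasts, was called higher with A_51_P161054, from 5.40, not well above background, to 239, at least 10.5-fold against the dimmest detected probe of the control array. The other Itgb6 probe was well above background on neither array, and the detected spot had uneven pixels, with a coefficient of variation of 0.386, whose part in the call was not tested. The 15 amelogenesis genes measured on both arrays, each taken with 1 probe, had a median log2 ratio of -0.29. The median over all probes measured on both arrays was 0.04. Klk4 and Tuft1, at 0.11 and -0.61, had a midpoint of -0.25. Among the other lists, medians were also negative for mesenchymal markers (-0.30) and dentin and bone genes (-0.18). They were positive for regulators (0.12), epithelial markers (0.08), Wnt feedback genes (0.67) and the 1 measured casein gene (0.21).

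Transcription factors that act upstream of the enamel genes were also counted. Of 15 regulator genes, 11 (73.3%) were detected in control and 12 (80.0%) in CHIR99021-treated cells, beside 48.9% and 47.6% of all gene names. Among them were the Mediator subunit Med1 (2183 and 2637), the runt factor Runx1 (1634 and 1707) and the homeobox gene Dlx3 (1690 and 1518). Those well above background on neither array were Sp6, a factor required for ameloblast differentiation, with all 3 probes, the chromatin organiser Satb1 with all 5, and the dental stem cell factor Sox2 with 1. No regulator met the criteria, and the 11 measured on both arrays had a median log2 ratio of 0.12.

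Dentin and bone matrix genes were set beside them because Amelx, Ambn, Enam, Amtn, Odam and Dspp belong, with several bone genes, to the secretory calcium-binding phosphoprotein family. Of 21 probes for 10 dentin and bone genes, 14 (66.7%) were detected on each array, beside 47.7% and 46.1% of all probes, among them Sparc (283278 control, 265330 CHIR99021) and the collagen genes Col1a2 (270783 and 242601) and Col1a1 (122712 and 116216). Within the family, the phosphoprotein Spp1 (32632 in control, 22904 after CHIR99021) and bone sialoprotein Ibsp (225 and 173) were detected on both arrays, and Mepe was detected after CHIR99021 only, at 41.7. Dmp1, which is expressed by odontoblasts and osteocytes, and the 6 enamel-list members were detected on neither array. No dentin or bone gene met the criteria.

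**Figure D3:**
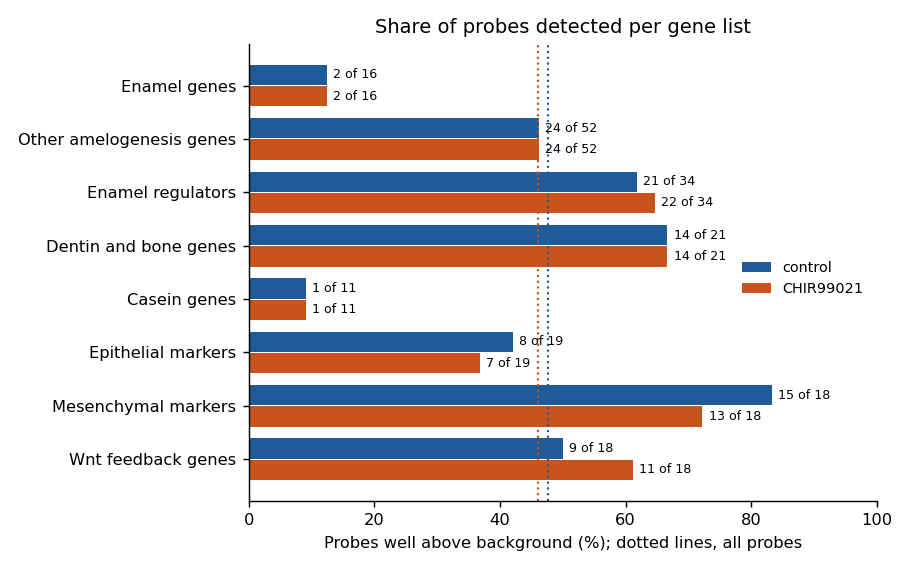
Share of probes well above background (percent, bars from 0) on the control (blue) and CHIR99021 (orange) array for the enamel genes and 7 related gene lists, with the counts beside the bars and dotted lines at the share of all probes (47.7% and 46.1%). The enamel genes (2 of 16) and the casein genes (1 of 11) have the shortest bars, and the mesenchymal markers (15 and 13 of 18) the longest.

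Odam, Amtn, Ambn and Enam lie in a cluster on chromosome 5, together with the casein gene Csn3 and salivary protein genes. In mm9 their probes run over 617 kb, from 88316448 to 88933686. Of the 19 probes in this interval, 2 were detected in control cells, for Csn3 (A_55_P2716107) and Smr2, and 1 in CHIR99021-treated cells, for Csn3. The signals of that Csn3 probe were 70.1 in control and 78.2 in CHIR99021-treated cells, and the other two Csn3 probes were not well above background. On the side before Odam, within 1000 kb, 3 of 24 probes were detected in control and 1 of 24 in CHIR99021-treated cells. On the side after Enam, 10 of 19 (52.6%) were detected in control and 12 of 19 (63.2%) in CHIR99021-treated cells. Of all probes, 47.7% and 46.1% were detected. Several of these 19 probes share a gene, and by gene 7 and 8 of 13 were detected. The 5 probes of the cluster's 4 enamel genes thus lay in a stretch with few detected probes that ended beyond Enam. These 5 are themselves among the 19 probes of the interval, so its count partly restates their calls. Probes of neighbouring genes are not independent, and these counts are a description of the 2 arrays.

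**Figure D4:**
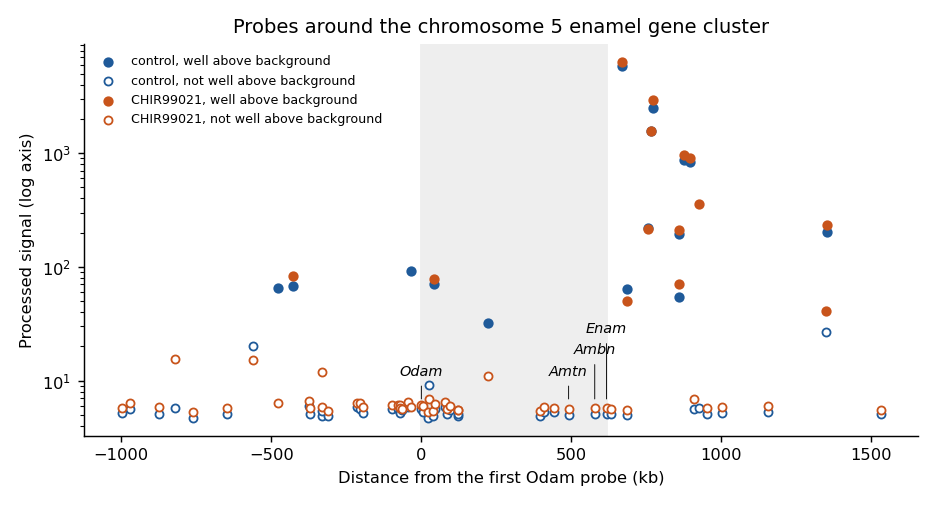
Processed signal (log axis) of the probes within 1000 kb of the chromosome 5 cluster against distance from the initial Odam probe in kb, with control in blue and CHIR99021 in orange, filled where well above background; the grey band spans Odam to Enam. Inside the band 2 of 19 control points and 1 of 19 CHIR99021 points are filled, and to its right 10 and 12 of 19.

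Genes that report β-catenin activity were set beside the enamel genes to show what the treated array registered. Of the 9 listed Wnt feedback genes, 7 had tested probes, and 3 of these 11 probes, each of another gene, were called higher, beside 2.35% of all tested probes, and none lower. Lef1, a transcription factor of the pathway and also one of its targets, went from 239 to 690, a log2 ratio of 1.58, and Rnf43, a ubiquitin ligase that removes Wnt receptors, from 69.3 to 167, a log2 ratio of 1.32. The Rnf43 call lay at the Z-score threshold and held in 7 of 11 settings, over all of which its Z-score ran from 1.23 to 2.26, and its other probe was well above background on neither array. The third was Nkd1, a feedback inhibitor, which went from 8.45, not well above background, to 588, at a spot with a pixel coefficient of variation of 0.401, whose part in the call was not tested. Notum, a secreted Wnt inhibitor (4434 and 5570), and Znrf3, a homologue of Rnf43 (418 and 640), did not meet the criteria. Axin2, the standard target of the pathway, was well above background on the CHIR99021 array only, with 1 of its 2 probes at 37.9 against 7.23, and did not meet the criteria. Over the same 6 h no enamel gene passed from below to well above background, and the 2 that were measured had log2 ratios of 0.11 and -0.61.

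**Figure D5:**
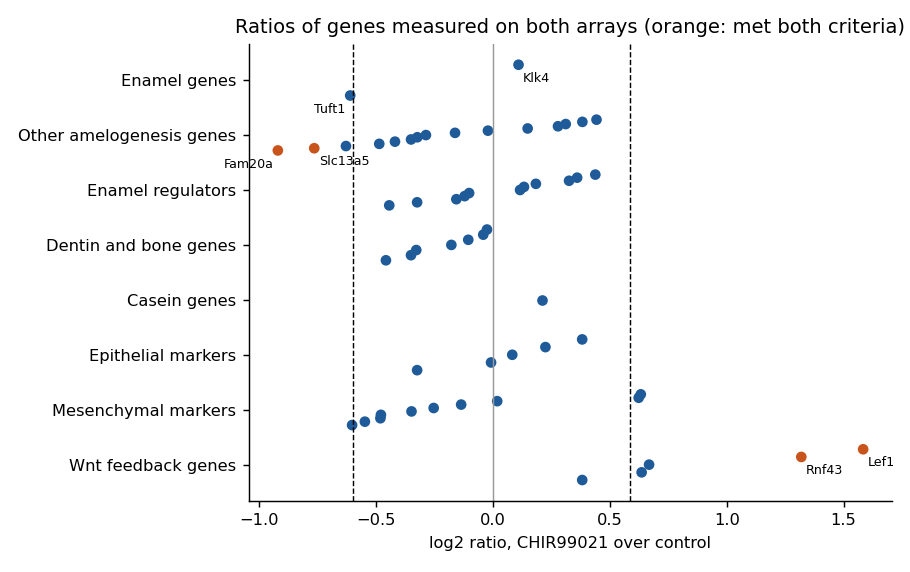
Log2 ratio of CHIR99021 over control for each gene measured on both arrays, by gene list, with 1 point per gene, dashed lines at ratios of 0.66 and 1.5, and orange points for genes that met both criteria. Klk4 and Tuft1, in the top row, are blue, at 0.11 and -0.61, and Lef1 and Rnf43 lie to the right.

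Since LEF1 and the related TCF factors bind short motifs in DNA, the promoters of the enamel genes were searched on both strands for CTTTG followed by AA or by AT or by TA or by TT. RefSeq promoters of build GRCm38.p6, from 250 bases before to 50 bases after the transcription start, were found for 8 of the 10 genes, and Tuft1 and Dspp had no entry. Of the 8 promoters, 2 (25.0%), those of Ambn and Amelx, held a match, beside 16.9% of all 32851 promoters. The 250 bases before the start are shown for both, 5′ to 3′ on the gene's strand, with the matches in capitals. The Ambn window is chr5:88455741-88456040 on the plus strand with matches that begin at -229 and -52, and the Amelx window is chrX:169187160-169187459 on the minus strand with a match that begins at -50. These matches describe the letters only, and neither gene was well above background after CHIR99021.
Ambn promoter: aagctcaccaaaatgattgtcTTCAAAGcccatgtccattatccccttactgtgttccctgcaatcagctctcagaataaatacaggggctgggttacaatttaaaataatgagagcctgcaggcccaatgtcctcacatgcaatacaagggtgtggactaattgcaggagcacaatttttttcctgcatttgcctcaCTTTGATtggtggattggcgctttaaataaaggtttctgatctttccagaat
Amelx promoter: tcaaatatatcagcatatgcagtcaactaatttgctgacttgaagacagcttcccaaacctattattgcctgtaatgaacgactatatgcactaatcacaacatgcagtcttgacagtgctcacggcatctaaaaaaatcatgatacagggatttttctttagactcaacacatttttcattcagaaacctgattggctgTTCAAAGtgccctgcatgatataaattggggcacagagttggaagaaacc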

How the data were processed

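The authors deposited the scanner output of both arrays, quantified with Agilent Feature Extraction (10.7.1.1 per the file headers, 9.5.1.1 in the submitters' processing notes). As deposited, the intensity is background-subtracted and not scaled between the arrays. The deposited p-value of each spot, against its own background, and the deposited detection calls were used as given. The Methods name a human array, whereas the file headers name a mouse design and build mm9. A separate table of intensities normalized by the authors was used as an alternative.

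Intensities of non-control spots were put on the log2 scale and centred on each array's 75th percentile (Python 3.11.15, with pandas 2.3.3 and numpy 2.4.6). Spots of the same probe were averaged, spots marked as outliers were left out of this, and no spot was saturated. A gene with several probes took the tested probe with the highest mean signal, and a probe counted as detected where at least 50% of its spots were well above background. Figures were drawn with matplotlib 3.10.9. The normexp alternative used an offset of 50 (limma 3.58.1, R 4.3.3).

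The 10 genes and the other 7 lists were chosen with earlier results of these data known. All genes of the 10 are named with every probe; of the lists, genes detected on at least 1 array may be named, those meeting the criteria and those with the highest signals before others, and the 3 with the highest mean signal of each list are among them, apart from 1 gene not reported here. Genes named that were detected on neither array, in the check of the label and in the amelogenesis, regulator and dentin and bone lists, were chosen after their values were seen. Which exon or untranslated region a probe lies in is not given in the sources used here.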

Additional observations from a re-analysis of the deposited data

How the results depend on the processing

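No paired analysis was possible because there is a lone array for control and for CHIR99021. Under the alternative settings that gave a ratio, Tuft1 ran from 0.631 to 0.678 and was called lower in none that used a Z-score, and with the ratio criterion alone it was the 1 enamel gene probe called lower. Klk4 ran from 1.03 to 1.11, and its log2 ratio was 0.048 with normexp background correction.

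The detection counts depended on the rule. The share of all probes is given only for the well above background call. With the call that a spot is positive and differs from its background, 5 of 16 enamel gene probes, of 5 genes, were detected in control cells. On the CHIR99021 array 3 were. The negative control spots that passed it numbered 17 (5.52%) and 20 (6.49%). Of the casein probes, 2 passed in control cells and 1 on the CHIR99021 array. With signals above the 99th percentile of the negative control spots, 1 enamel gene probe and 1 gene remained in control cells, and 2 probes of 2 genes on the CHIR99021 array. Klk4 passed this rule on the CHIR99021 array only (74.6 beside 68.5) and not in control (71.7 beside 112). Casein probes numbered 0 (control) and 1 (CHIR99021), and epithelial marker probes 3 and 4. With signals above the highest negative control spot, 1 enamel gene probe and 1 gene remained on each array, 0 casein probes on each, 9 regulator probes on each, 2 epithelial marker probes on each, 14 (control) and 12 (CHIR99021) other amelogenesis probes, and 3 (control) and 4 (CHIR99021) Wnt feedback probes. The counts of detected dentin and bone probes and of detected mesenchymal marker probes stayed within 1.5 times of those given under all of these rules. Including outlier spots, an alternative chosen after seeing the data, left both ratios as they were. The low signals limit what can be said of Klk4 and of every probe not well above background, and no difference has a replicate check.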
